A study of Mus musculus with 16 samples.

Results

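Iron handling in oligodendrocytes of the juvenile mouse brain was followed through 10 genes that move, store or sense iron: Trf, Tfrc, Timd2, Slc11a2, Fth1, Ftl1, Ncoa4, Slc40a1, Aco1 and Ireb2. They were chosen by name as genes of iron handling, with earlier results of these data known, and all 10 were found among the 32207 genes of the deposited count table. Of these, 9 passed the filter on low counts and were tested. Timd2 did not pass. Trf and Ireb2 lie on chromosome 9, Slc40a1 on chromosome 1, Aco1 on 4, Ftl1 on 7, Timd2 on 11, Ncoa4 on 14, Slc11a2 on 15, Tfrc on 16 and Fth1 on 19, in the GENCODE annotation used for names.

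The RNA came from cells carrying the O4 surface antigen, which marks the oligodendrocyte lineage, pulled from dissociated brains with magnetic beads. The animals were 16 mice of the outbred OF-1 strain at postnatal day 16, a time of active myelination. Each sex had 4 control and 4 BPA mice, with 1 library per mouse. BPA (bisphenol A, a plastic monomer with weak estrogen-like activity) reached the pups by way of the dams, whose drinking water held it from gestational day 7 until the end of lactation, and control mice are labelled only as controls. The labels state a dose of 40 µg/kg/day, while the design text states 250 µg/mL of water. An intake of water that would reconcile these is implausibly small, so the scale of the dose was not settled. Because dams were dosed and litters are not recorded, mice of a group may be siblings with a shared exposure. That would make the p-values for BPA too small and its confidence intervals too narrow. No batch is recorded either.

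Oligodendrocytes are the most iron-rich cells of the brain, and iron is a cofactor of the enzymes that make the lipids of myelin. Cells take up iron bound to transferrin (Trf) through the transferrin receptor (Tfrc), and the transporter DMT1 (Slc11a2) carries it from the endosome into the cytosol. Ferritin, a cage of heavy (Fth1) and light (Ftl1) chains, stores it until the receptor Ncoa4 delivers ferritin to the lysosome, and ferroportin (Slc40a1) is the known route of iron out of the cell. When iron is scarce the iron regulatory proteins IRP1 (Aco1) and IRP2 (Ireb2) bind a hairpin in target transcripts, the iron-responsive element. Bound at the 5′ end it blocks translation, and bound at the 3′ end it protects the transcript from decay.

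The hairpins tie several of these genes to the same sensors, so their sequences are shown before the values. Transcripts of GENCODE release M21 (mouse build GRCm38) were searched on their own strand for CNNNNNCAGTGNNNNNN with the 5 bases on either side of the loop able to pair, G with T included. Each line gives 30 bases, 5′ to 3′, with T for U. The capitals mark the unpaired C of the stem and the 6 bases of the loop.
Fth1, 5′ UTR: ttcctgCttcaaCAGTGCttgaacggaacc
Ftl1, 5′ UTR: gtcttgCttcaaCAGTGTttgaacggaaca
Slc40a1, 5′ UTR: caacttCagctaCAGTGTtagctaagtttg
Tfrc, 3′ UTR: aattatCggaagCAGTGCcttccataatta
Tfrc, 3′ UTR: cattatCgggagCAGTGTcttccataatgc
Tfrc, 3′ UTR: ctatatCggagaCAGTGAtctccatatgtt
Tfrc, 3′ UTR: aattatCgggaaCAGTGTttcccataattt

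Of the 10 genes, 4 held the motif in an untranslated region, against 160 of the 21901 protein-coding genes searched (0.73%). The 10 were chosen as genes of iron handling, so these shares are a description and no test of enrichment. In Fth1, Ftl1 and Slc40a1 it lay in the 5′ UTR, as it did in 31 genes of the whole search (0.142%). In Tfrc it occurred 4 times in the 3′ UTR, where 129 genes held it (0.589%). Fth1 and Ftl1 share 16 of the 17 bases from the unpaired C to the end of the stem. The 1 difference is C12T, with positions counted from 1 at the unpaired C, Fth1 first, and it falls on the last base of the loop. Over the same 17 bases Slc40a1 shares 10 with Fth1, and the 4 hairpins of Tfrc share 8 to 10. A match describes letters and is not a tested binding site, and a gene with no match lacks only these letters in the transcripts searched.

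The sorted cells carried the transcripts that define oligodendrocytes. The 12 markers of myelinating cells summed to 119582 to 169343 CPM across libraries, in CPM (counts scaled to a common library total). The 10 markers of precursors and newly formed cells summed to 4122 to 7112 CPM. The 14 microglial markers summed to 649 to 2723 CPM, the 10 astrocyte markers to 1256 to 8667 CPM and the 8 erythroid markers to 826 to 4901 CPM. Neuronal markers summed to 162 to 263 CPM, endothelial to 177 to 372 CPM and ependymal or choroid plexus to 124 to 701 CPM. No marker of any list was at 0 throughout a group. Male BPA 2 stood apart with the highest astrocyte sum, the next library reaching 3318 CPM, and with the lowest myelinating sum. Female BPA 1 had the highest microglial and erythroid sums. Library totals ran from 23603816 to 42575326 counts, and a count of 0 allows up to 3 counts, or 0.0705 to 0.127 CPM. In such bulk RNA a smaller number of cells of a type cannot be told apart from less RNA per cell.

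Transferrin and ferritin heavy chain were the most abundant of the 10 transcripts on every scale. In CPM, Trf and Fth1 ranked 16 and 21 of the 16339 genes tested, and Trf took 0.281% to 0.415% and Fth1 0.238% to 0.341% of a library's counts. Levels of different genes were compared per length on a pair of scales, because the order of the others depended on the length used. The authors' deposited values divide normalized counts by the median length of a gene's transcripts, short ones included. The alternative, added after the data were seen, divides the same counts by the longest coding transcript of GENCODE M21. For Aco1 these lengths were 0.676 and 3.83 kb, and for Ireb2 3.94 and 5.77 kb.

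Per kilobase of median length, Trf stood at 154077 ± 20069 and Fth1 at 132293 ± 14232 (mean ± SD, 16 libraries), with Trf above Fth1 in 15 of 16. Per kilobase of longest coding transcript the order turned, with Fth1 at 63313 ± 6811 above Trf at 46445 ± 6050 in all 16 libraries. Their ranges over libraries overlapped on both scales. The lower of this pair exceeded the next gene by 25-fold on the first scale (Aco1) and by 20.9-fold on the second (Ftl1).

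The sensors, receptor and transporters lay far below. On the median-length scale Aco1 stood at 5283 ± 244, Tfrc at 3752 ± 237, Slc11a2 at 3196 ± 210, Ftl1 at 2804 ± 492, Slc40a1 at 1056 ± 233, Ireb2 at 989 ± 54.2 and Ncoa4 at 341 ± 99.2. On the longest-coding scale Ftl1 came first at 2224 ± 390, followed by Aco1 at 932 ± 43.1, Ireb2 at 676 ± 37.1, Tfrc at 620.0 ± 39.1, Slc11a2 at 513 ± 33.7, Slc40a1 at 149.8 ± 33.01 and Ncoa4 at 55.5 ± 16.1. Aco1 above Tfrc, Tfrc above Slc11a2, Slc11a2 above Slc40a1 and Ncoa4 at the bottom held on both. The places of Ftl1 and Ireb2 did not.

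Neighbours were not always separated. Tfrc and Slc11a2 overlapped in range on both scales, as did Slc11a2 and Ftl1 and Slc40a1 and Ireb2 on the median-length scale, and Ireb2 and Tfrc on the other. In the median-length order Slc40a1 was above Ireb2 in 9 of 16 libraries, whereas in CPM, with no length taken into account, Ireb2 at 114 and Slc40a1 at 14.7 did not overlap. Of the iron regulatory proteins, Aco1 (IRP1) was above Ireb2 (IRP2) per length on both scales, by 2.42 log2 units with the median length and 0.46 with the longest. In CPM Ireb2 was the higher, at 114 against 104.

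**Figure D1:**
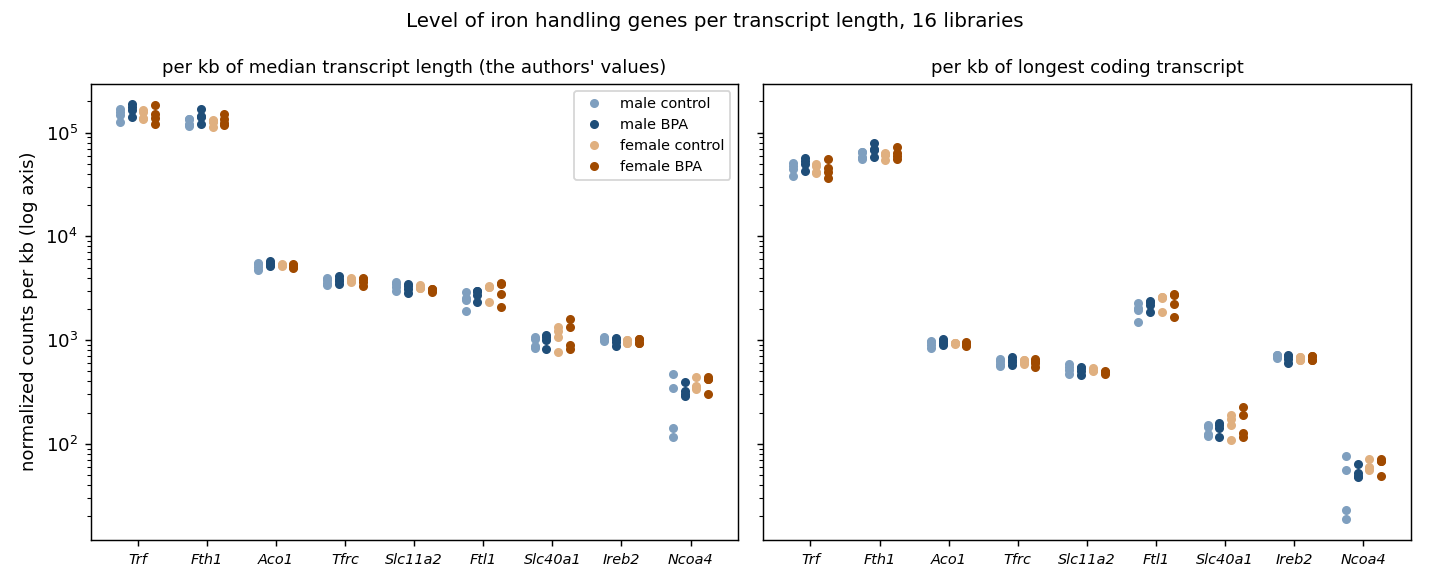
Level of the 9 tested iron genes in normalized counts per kilobase, on a log axis, with 1 point per library (16 libraries, coloured by group), divided by the median transcript length on the left and by the longest coding transcript on the right. Trf and Fth1 sit at 113972 or above on the left and at 36190 or above on the right, and the other genes sit at 5769 or below and 2804 or below.

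The ferritin heavy chain far outnumbered the light chain in counted reads. The ratio of Fth1 to Ftl1 per kilobase had a median of 47.8 (33.2 to 64.1 over libraries) with the median transcript length and of 28.9 (20.1 to 38.7) with the longest coding transcript. The count of Ftl1 is uncertain, however, because 69.8% of the 50-base words of its coding transcripts also occur in other genes of the table, against 3.59% for Fth1. Its processed copies Ftl1-ps1 and Ftl1-ps2 held mean levels of 0.014 and 0.059 CPM, which does not show how many shared reads went uncounted. The processing notes name HTSeq, but the sources used here do not state how reads matching several places were counted. If such reads were left out, Ftl1 would be undercounted more than Fth1 and the ratio would be too high. The part of this in the ratio was not tested. For Tfrc, Slc40a1 and Aco1 no 50-base word was shared. Of the words of Trf transcripts, 58.5% occur in Gm20425, a gene absent from the table, and 0.9% in genes of the table. What this does to the Trf level was not tested.

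Timd2, described in rodents as a receptor through which oligodendrocytes take up heavy-chain ferritin, was nearly undetected. It had 1 count each in female control 2, male BPA 1 and female BPA 4, and 0 counts in the other 13 libraries. At 3 counts in 16 libraries its presence as a transcript of these cells was not detectable above the floor of the counting.

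Beside these levels, the study asked whether BPA changed them in each sex. In males, the 9 tested genes gave 0 calls by limma-voom with Benjamini-Hochberg adjustment at 0.05, against 0.00612% of all 16339 genes, and none had an unadjusted p under 0.05, against 7.96% of all genes. Females gave 0 calls among the 9 against 0% of all genes, and again no unadjusted p under 0.05 against 4.55%. Over both sexes the 9 genes gave 0 calls against 0.0184%, with no unadjusted p under 0.05 against 7.69%. By limma-trend the 9 genes also gave 0 calls in each of these comparisons. The smallest adjusted p of any of them in any comparison was 0.711 (limma-voom), for Fth1 in males. Their median log2 fold change was 0.07 in males with 7 of 9 higher, and -0.02 in females with 4 of 9 higher. Over all genes the median was 0.009 in males with 52.5% higher, and 0.002 in females with 50.6% higher.

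What sizes of change the data leave room for can be read from the intervals only if the mice are independent. With siblings in a group the intervals would be too narrow. Over both sexes, the 95% intervals of 7 of the 9 genes lay within 0.32 log2 units either way. The widest, that of Ncoa4, reached 0.71.

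**Figure D2:**
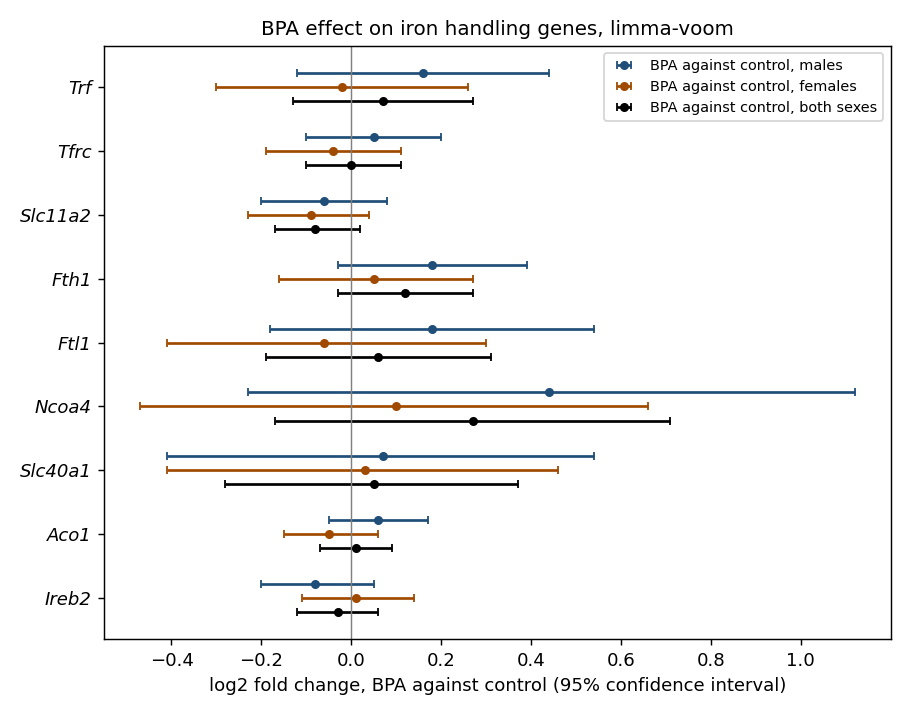
Log2 fold change, BPA against control, of the 9 tested iron genes in males, females and both sexes, with bars for the 95% confidence interval of limma-voom. Every interval crosses 0, and those of Ncoa4 are the widest.

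Transferrin, which in the brain is made largely by oligodendrocytes and choroid plexus, varied between the mice of every group. In male controls Trf stood at 3341, 3843, 2849 and 3523 CPM, and in BPA males at 3204, 3727, 4014 and 4233 CPM. In female controls it stood at 3764, 3064, 3613 and 3137 CPM, and in BPA females at 3165, 2698, 3426 and 4153 CPM. The groups overlapped in both sexes, the highest level being in male BPA 4 and the lowest in female BPA 2. The log2 fold change was 0.16 ± 0.13 (SE) in males (95% interval -0.12 to 0.44, adjusted p = 0.825, limma-voom) and -0.02 ± 0.13 in females (-0.30 to 0.26, adjusted p = 0.999, limma-voom). The difference between the sexes' effects was -0.19 ± 0.18 (adjusted p = 0.999, limma-voom).

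Of the uptake genes, Tfrc lay within a narrow range in all groups. Group means were 86.9 ± 6.58 CPM in male controls, 89.9 ± 7.01 in BPA males, 89.8 ± 3.62 in female controls and 87.2 ± 6.46 in BPA females (SD, n = 4 each). The log2 fold change over both sexes was 0.00 ± 0.05, with a 95% interval from -0.10 to 0.11 (adjusted p = 0.994, limma-voom). The whole range over 16 libraries was 79.0 to 98.4 CPM.

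Slc11a2 was the only one of the 9 whose BPA and control mice did not overlap, and this held in females alone. Female controls stood at 65.8, 67.1, 69.9 and 65.9 CPM and BPA females at 61.0, 62.8, 64.0 and 63.9 CPM. All 4 exposed females thus lay below all 4 controls, as for 2.06% of all genes tested. The groups lay close together, and the log2 fold change of -0.09 ± 0.06 was not called (95% interval -0.23 to 0.04, unadjusted p = 0.165, adjusted p = 0.999, limma-voom). Male controls stood at 67.2, 61.0, 75.1 and 71.0 CPM and BPA males at 70.8, 59.7, 63.9 and 68.8 CPM, which overlap. The difference of the effects between the sexes was -0.03 ± 0.09 (adjusted p = 0.999, limma-voom). In males 0 of 9 genes were separated in either direction, against 1.62% of all genes higher and 2.83% lower, and in females 0 of 9 were higher, against 1.27%.

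The ferritin chains did not pass the test either. In male controls Fth1 stood at 2836, 2808, 2433 and 2508 CPM, and in BPA males at 2932, 2559, 3477 and 3033 CPM. Of the BPA males 3 lay above every control, and male BPA 2, the library with the high astrocyte sum, lay among the controls. Those 3 also lay above every male control in the summed myelinating markers, at 159140 to 169343 CPM against at most 158622 CPM. The part of either marker sum in the Fth1 levels was not tested. The male difference was 0.18 ± 0.10 log2 units (95% interval -0.03 to 0.39, unadjusted p = 0.0913, adjusted p = 0.711, limma-voom). In female controls Fth1 stood at 2717, 2663, 2805 and 2390 CPM and in BPA females at 2461, 2573, 2794 and 3168 CPM, with a log2 fold change of 0.05 ± 0.10 (adjusted p = 0.999, limma-voom). Only female BPA 4 exceeded every female control.

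The counts of Ftl1, uncertain because of the shared sequence given above, spread more widely than those of genes of like level. Their SD within groups was 0.261 log2 units against a median of 0.10. Group means were 54.9 ± 9.46 CPM in male controls, 61.5 ± 6.32 in BPA males, 68.3 ± 10.2 in female controls and 66.5 ± 15.2 in BPA females. The groups overlapped in both sexes. BPA and control differed by 0.18 ± 0.17 log2 units in males (adjusted p = 0.854, limma-voom) and -0.06 ± 0.17 in females (adjusted p = 0.999, limma-voom). Without 1 library the male value of Ftl1 ran from 0.06 (without male control 4) to 0.26 (without male control 3), and that of Fth1 from 0.11 (without male BPA 3) to 0.25 (without male BPA 2).

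**Figure D3:**
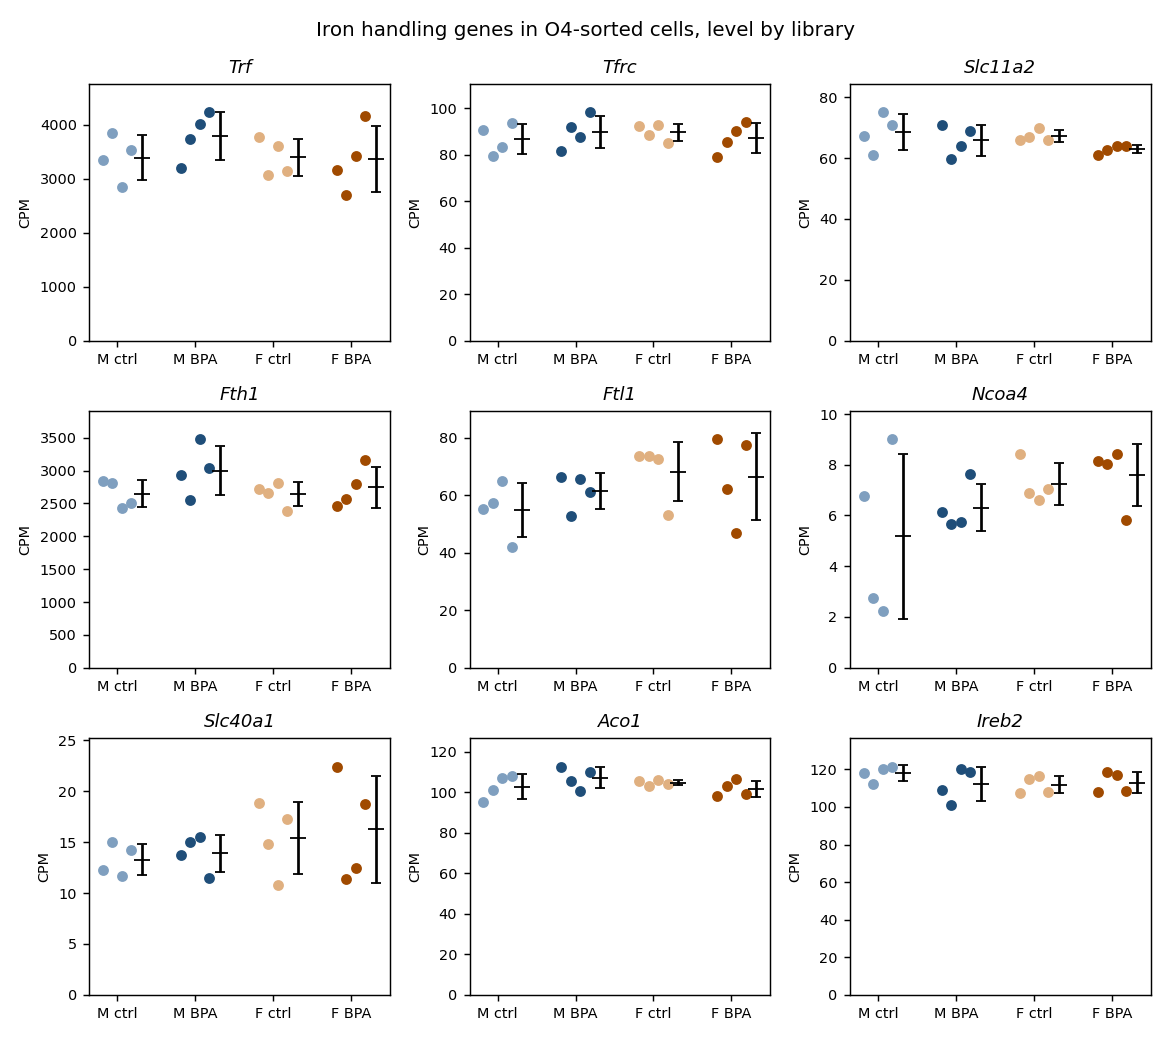
CPM of the 9 tested iron genes in each library, by group (M and F for male and female, ctrl for control, 4 libraries each), with bars for mean ± SD and axes from 0. The 4 BPA females lie below the 4 female controls in the Slc11a2 panel, and in every other panel exposed and control mice overlap in both sexes.

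Ncoa4, the receptor that takes ferritin to the lysosome, had the most uneven counts of the tested genes. Male controls stood at 6.75, 2.76, 2.23 and 9.00 CPM, and BPA males at 6.13, 5.68, 5.76 and 7.65 CPM. Female controls stood at 8.43, 6.88, 6.60 and 7.05 CPM, and BPA females at 8.15, 8.02, 8.44 and 5.80 CPM. Male controls 2 and 3 were far below the other 14 libraries. The SD within groups was 0.514 log2 units, against a median of 0.219 among genes of like level. The log2 fold change for BPA was 0.44 ± 0.32 in males (95% interval -0.23 to 1.12, adjusted p = 0.796, limma-voom) and 0.10 ± 0.26 in females (adjusted p = 0.999, limma-voom). Without male control 3 the male value was 0.10, and without male control 4 it was 0.80.

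The low libraries of Ncoa4 were high for Gm6768, a gene in which 39.1% of the 50-base words of Ncoa4 coding transcripts also occur. In male controls Gm6768 stood at 0.274, 5.12, 5.75 and 0.531 CPM, the 2 high values being those of male controls 2 and 3. In BPA males it stood at 3.14, 3.06, 3.32 and 0.407 CPM. In female controls it stood at 0.318, 0.633, 0.470 and 0.542 CPM, and in BPA females at 0.578, 0.790, 0.424 and 3.22 CPM. Thus 6 libraries held Gm6768 at 3.06 CPM or more and the other 10 at 0.790 CPM or less. Those 6 were also the 6 lowest for Ncoa4.

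The sum of both genes varied far less. It was 8.10 ± 1.04 CPM in male controls, 8.79 ± 0.533 in BPA males, 7.73 ± 0.715 in female controls and 8.86 ± 0.122 in BPA females (SD, n = 4 each), and over all 16 libraries it ran from 7.03 to 9.53 CPM. Counted as 1 gene, an alternative chosen after the data were seen, the pair gave log2 fold changes of 0.12 ± 0.10 in males (adjusted p = 0.826, limma-voom) and 0.20 ± 0.09 in females (95% interval 0 to 0.40, unadjusted p = 0.05, adjusted p = 0.999, limma-voom). Over both sexes it was 0.16 ± 0.07 (unadjusted p = 0.0312, adjusted p = 0.572, limma-voom). Neither reading was called, and the Ncoa4 count alone is uncertain. The part of shared sequence in this pattern was not tested.

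**Figure D4:**
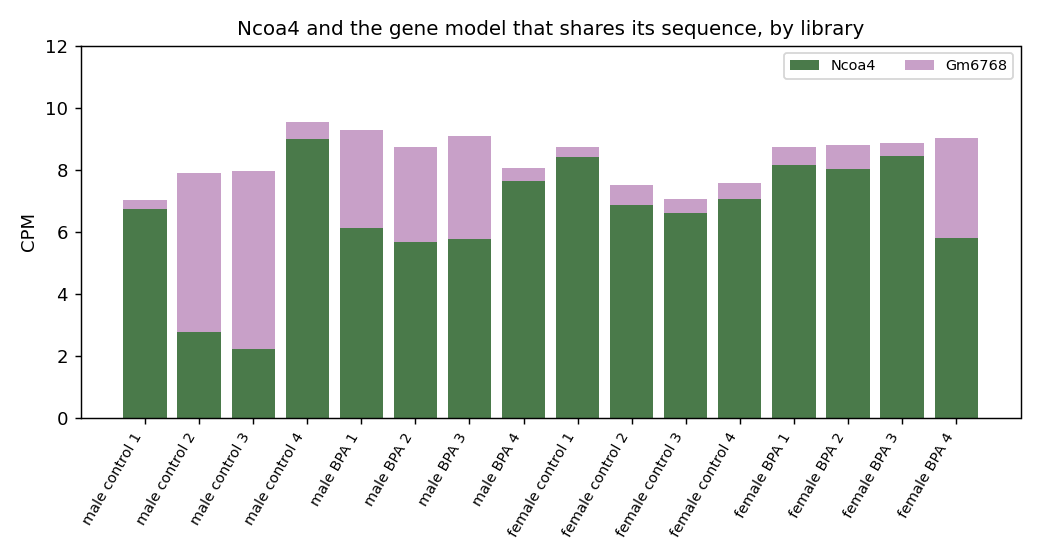
Ncoa4 and Gm6768 in each of the 16 libraries, in CPM. Libraries with Gm6768 above 3 CPM have the lowest Ncoa4 values, and the sum of both stays between 7.03 and 9.53 CPM.

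Ferroportin differed widely between mice of the same group, most of all in females. In female controls Slc40a1 stood at 18.9, 14.9, 10.8 and 17.3 CPM, and in BPA females at 22.4, 11.3, 12.5 and 18.8 CPM. The highest value belonged to female BPA 1. Male controls ran from 11.7 to 14.98 CPM and BPA males from 11.4 to 15.5 CPM, so the groups overlapped in both sexes. BPA and control differed by 0.07 ± 0.22 log2 units in males (adjusted p = 0.963, limma-voom) and 0.03 ± 0.20 in females (adjusted p = 0.999, limma-voom), and without female BPA 1 the female value was -0.17. Female BPA 1 also had the highest microglial sum, 2723 CPM. Microglial sums ranged from 649 to 1721 CPM in male controls and from 783 to 1530 in BPA males. In female controls they ranged from 933 to 2221 and in BPA females from 1178 to 2723. Within BPA males and within BPA females these sums kept the order of the Slc40a1 levels, and within either control group they did not. The erythroid sum of female BPA 1 was the highest as well, at 4901 CPM. Female control 1 (3457), female BPA 4 (2893) and female control 4 (2481) came next, the order of their Slc40a1 levels. Among the remaining females that order broke. Female control 2 had the lowest female erythroid sum, 1657.5 CPM, yet Slc40a1 at 14.9 CPM. Female BPA 3, with an erythroid sum of 2447 CPM, had Slc40a1 at 12.5 CPM. Males did not keep that order either. Male BPA 3, highest among males for Slc40a1, had an erythroid sum of 865 CPM. The genes most like Slc40a1 across libraries, once group means were removed, included Ctsc and Ly6e (Pearson r = 0.94 and 0.90 over 16 libraries that share their preparation). The part of other cells in the Slc40a1 level was not tested.

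The sensors had the smallest spread of the 9 genes. Aco1 had an SD within groups of 0.063 log2 units against a median of 0.101 at like level, and Ireb2 had 0.078 against 0.101. Aco1 means were 103 ± 6.08 CPM in male controls, 107 ± 5.27 in BPA males, 105 ± 1.26 in female controls and 102 ± 3.95 in BPA females. Over both sexes its log2 fold change was 0.01 ± 0.04, with a 95% interval of -0.07 to 0.09 (adjusted p = 0.979, limma-voom). Ireb2 means were 118 ± 4.09, 112 ± 8.87, 112 ± 4.55 and 113 ± 5.51 CPM in the same order. Its log2 fold change was -0.03 ± 0.04 over both sexes, with an interval of -0.12 to 0.06 (adjusted p = 0.919, limma-voom). For both transcripts these intervals over both sexes reach no further than 0.12 log2 units on either side of 0. Within a sex they were wider. In males they ran from -0.05 to 0.17 for Aco1 and from -0.20 to 0.05 for Ireb2. In females they ran from -0.15 to 0.06 and from -0.11 to 0.14.

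Between the sexes, averaged over exposure, the 9 genes gave 0 calls against 0.0673% of all genes, and 1 had an unadjusted p under 0.05, against 4.35% of all genes. That gene was Ncoa4, higher in females by 0.47 ± 0.21 log2 units (95% interval 0.03 to 0.91, unadjusted p = 0.0381, adjusted p = 0.999, limma-voom). Counted with Gm6768 the difference was -0.03 ± 0.07 (adjusted p = 0.999, limma-voom), so its direction turned. Ftl1 differed by 0.20 ± 0.12 (interval -0.05 to 0.45, adjusted p = 0.999, limma-voom). The other 7 differed by -0.09 to 0.18. The test of a different BPA effect in females and males gave 0 calls among the 9 against 0% of all genes, and no unadjusted p under 0.05 against 4.72%. By limma-trend the 9 genes gave 0 calls in both of these comparisons.

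Genes whose level across libraries followed that of an iron gene were listed as a description, from 8932 genes of at least 10 CPM, after removal of group means. Trf was followed most closely by Osbp2, Ap3b2 and Ccdc187 (Pearson r = 0.95, 0.93 and 0.90). Fth1 was followed by Tmbim1, Siah2 and Cdc42ep2 (0.88, 0.87 and 0.87), and Ftl1 by Cenpj, Spry1 and Tinf2 (0.84, 0.83 and 0.80). For Tfrc they were Sec61a2, Mblac2 and Alg6 (0.85, 0.84 and 0.84), and for Slc11a2 they were Srp68, Gfra1 and Pllp (0.91, 0.89 and 0.87). Aco1 went with Slc12a9 and Nup214 (0.91 and 0.86), Ireb2 with Nol4l, Vapa and Ubl3 (0.95, 0.95 and 0.94), and Ncoa4 with Katnbl1, Ctnnd1 and Khsrp (0.81, 0.80 and 0.78). All are maxima over all those genes in 16 libraries that share preparation and depth.

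Around these 10 genes, 85 further genes of iron biology were examined in 5 lists. Of these, 75 passed the filter and none was called in any comparison (limma-voom, Benjamini-Hochberg). Over both sexes, 16 tested genes of uptake and reduction had 10 higher and 6 lower values (median 0.03). The 8 of export and systemic control had 5 higher and 3 lower (0.15), and the 6 of storage and chaperones had 2 and 4 (-0.01). The 26 of mitochondrial iron and iron-sulfur assembly had 9 and 17 (-0.02), and the 19 of heme metabolism had 13 and 6 (0.04). Over all genes the median was 0.003, and 51.2% were higher. At an unadjusted p under 0.05 the lists held 1 higher and 2 lower, 0 and 1, 0 and 1, 0 and 1, and 2 and 2, in that order. Together these are 10 of 75 genes (13.3%), beside 7.69% of all genes tested.

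Among them Steap2, a metalloreductase that reduces ferric iron, came closest to the threshold. Male controls stood at 26.3, 20.8, 27.4 and 21.6 CPM and BPA males at 13.9, 15.5, 14.4 and 13.4 CPM. All 4 exposed males thus lay below all 4 controls, as they did for 2.83% of all genes tested and for 4 of the 75 list genes (5.33%). Female controls stood at 20.01, 18.7, 25.96 and 21.7 CPM and BPA females at 20.8, 23.3, 18.4 and 11.7 CPM, which overlap. The log2 fold change was -0.74 ± 0.17 in males (unadjusted p = 0.000433, adjusted p = 0.271, limma-voom) and -0.21 ± 0.16 in females (adjusted p = 0.999, limma-voom), and -0.48 ± 0.11 over both (adjusted p = 0.232, limma-voom). The female effect minus the male one was 0.53 ± 0.23 (unadjusted p = 0.0353, adjusted p = 0.999, limma-voom). The summed markers of precursors and newly formed oligodendrocytes were also lower in BPA males, at 4122 to 4752 CPM against 5261 to 5993 CPM in male controls. In females they ran from 4355 to 7112 against 4922 to 5626 CPM. Their part in the Steap2 difference was not tested.

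The remaining genes named by the rule were likewise not called over both sexes. Steap1, a second reductase of that family, differed by -0.51 ± 0.19 (adjusted p = 0.517, limma-voom) at 0.868 to 2.55 CPM. Flvcr1, a transporter first described as a heme exporter, differed by -0.17 ± 0.05 (adjusted p = 0.429, limma-voom), and Uros, an enzyme of heme synthesis, by 0.11 ± 0.04 (adjusted p = 0.544, limma-voom). Neo1, a co-receptor in hepcidin control, differed by -0.13 ± 0.05, and Bmpr1a, a BMP receptor, by 0.32 ± 0.18. Pcbp1, a chaperone that loads iron into ferritin, differed by -0.09 ± 0.04, and Nubp1, an iron-sulfur scaffold, by -0.06 ± 0.05. Mms19 and Glrx5, of iron-sulfur delivery, differed by -0.10 ± 0.04 and -0.08 ± 0.04. Adjusted p for these last 6 ran from 0.562 to 0.825 (limma-voom).

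For 4 of these genes besides Steap2 the male groups did not overlap while the female groups did. Flvcr1 ranged from 20.9 to 26.6 CPM among exposed males and from 28.1 to 31.6 CPM among unexposed ones, with log2 fold changes of -0.29 ± 0.08 in males (unadjusted p = 0.00182, adjusted p = 0.369, limma-voom) and -0.04 ± 0.07 in females. Mms19 ranged from 53.9 to 58.5 CPM with BPA and from 58.97 to 69.7 CPM without, with -0.21 ± 0.06 in males (adjusted p = 0.384, limma-voom) and 0.01 ± 0.06 in females. Steap1 ranged from 0.868 to 1.51 CPM with BPA and from 1.62 to 2.39 CPM without, with -0.77 ± 0.27 in males (adjusted p = 0.496, limma-voom) and -0.25 ± 0.26 in females. Uros was the one with higher levels in BPA males, from 18.8 to 19.7 CPM against 15.1 to 17.97 CPM, with 0.22 ± 0.06 in males (adjusted p = 0.384, limma-voom) and 0.00 ± 0.06 in females. For the difference of effects, limma-voom gave an unadjusted p of 0.0332 for Flvcr1, 0.0194 for Mms19, 0.025 for Uros and 0.187 for Steap1. Each had an adjusted p of 0.999 (limma-voom). These genes were grouped because their male groups separate and their female groups overlap, so a small p here follows partly from that choice. In that test 7 of the 75 list genes (9.3%) had an unadjusted p under 0.05, beside 4.72% of all genes (limma-voom). Of the 75 list genes 4 were higher in all BPA males (5.33%, beside 1.62% of all genes), and these were Uros and, named after their values were seen, Alas1, Cd163 and Cp. In females 1 list gene was lower in all BPA mice (1.33%, beside 2.06%), Cisd1, also named after its values were seen, and 0 were higher. The male groups were separated in the summed precursor markers as well, as given beside Steap2, and the part of this in these differences was not tested.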

How the data were processed

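Poly(A) RNA of O4-sorted cells from 16 mice was sequenced with a strand-marking kit, per the labels' protocols. Per the submitters' processing notes, the build was mm39 and the tools were STAR 2.5.3a, HTSeq 0.6.1p1, bcl2fastq 2.20.0.422 and also DESeq2 1.16.1. The values used are whole-number counts per gene and library as deposited by the authors, and, for levels between genes only, the authors' normalized counts, per kb of median transcript length as deposited or per kb of the longest coding transcript. The layout of the deposited table could not be read by an automated check of units, so its unit was recorded as another kind of value, and the quasi-likelihood count test fixed as main was replaced by limma-voom, as that design provides. Every sample column matched a library (0 columns unmatched).

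Genes with at least 10 counts in at least 4 libraries (the minimum scaled to library size) and 15 in all were kept, which left 16339 genes and 99.947% of counts. Libraries were scaled by the trimmed mean of M values (factors 0.959 to 1.045). In limma 3.58.1 (R 4.3.3) each of the 4 groups had its own coefficient over 16 libraries, and two-sided p-values were corrected over all genes tested (Benjamini-Hochberg, threshold 0.05). Likeness between genes used log2 CPM with a prior count of 2. The fitting steps were tested on simulated data. Python 3.11.15 with pandas 2.3.3 and matplotlib 3.10.9 made tables and plots. GENCODE M21 gave symbols (31717 of 32207 genes), transcript sequences and 50-base words, and no coordinates are printed because its build differs from the authors'. Of 178 list genes 177 matched, and Ftmt did not.

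The members and lists were chosen with earlier results of these data known. Named were all 10 members, any called gene of the 5 other iron lists, the 2 genes of each such list with the smallest p over both sexes, and the 3 genes most like each tested member, of which some are not reported here. Alternatives were another scaling, limma-trend, other filters, fits within a sex, a replicate block and leaving out each library.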

Additional observations from a re-analysis of the deposited data

Results flagged for a closer look

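In 36 groups of 4 libraries (9 genes in 4 groups), 2 held a library whose gap to its nearest neighbour exceeded Dixon's limit of 0.829 of the whole range, which chance gives in about 1 group of 20. Ftl1 in female controls was lowest in female control 4, at 53.0 CPM, where the other 3 ran from 72.7 to 73.7 CPM. Ncoa4 in BPA females was lowest in female BPA 4, at 5.80 CPM, where the other 3 ran from 8.02 to 8.44 CPM. That library held Gm6768 at 3.22 CPM, above the other 3 BPA females, and its sum of both genes was 9.02 CPM.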

How the results depend on the processing

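None of the 10 members was called in any of the 5 comparisons under any alternative run. The genes of the 5 other iron lists were not followed in these alternatives. Counts over all genes were small and moved. Over both sexes 3 genes were called, against 0 with the replicate block, 0 after stricter filtering, 0 without female BPA 1 and male BPA 2 (an alternative chosen after seeing the data) and 0 to 5 without 1 library. In males 1 was called, against 3 with limma-trend, 2 with no filter, 0 with the stricter filter, 4 in a fit of males alone, 0 without those 2 libraries and 0 to 3 without 1 library. In females 0 were called, against 2 with no filter, 1 in a fit of females alone and 0 to 0 without 1 library. Without 1 library the difference of effects gave 0 to 3 and females against males 9 to 14.

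Some log2 fold changes of the 9 tested members, none of them called, turned sign. Without female BPA 1 and male BPA 2, Ireb2 was 0.02 and Slc40a1 -0.06 over both sexes, and in females Slc40a1 was -0.16, Tfrc 0.02 and Trf 0.01. With no filter Tfrc in females against males was -0.01. With Gm6768 added, Ncoa4 gave 0.08 for the difference of effects and -0.03 for females against males. Leaving out 1 library gave, over both sexes, Aco1 0 to 0.03, Slc40a1 -0.05 to 0.13 and Tfrc -0.01 to 0.03. In females it gave Fth1 -0.01 to 0.11, Ftl1 -0.17 to 0.11, Slc40a1 -0.17 to 0.19, Tfrc -0.07 to 0 and Trf -0.13 to 0.09. For the difference of effects it gave Ncoa4 -0.70 to 0, Slc11a2 -0.08 to 0.03 and Slc40a1 -0.24 to 0.12, and for females against males Tfrc -0.02 to 0.03. The cause was not tested. Levels per length, compared as log2 ratios, turned with the longest coding transcript (chosen after the data were seen) for Trf over Fth1 (-0.45), Slc11a2 over Ftl1 (-2.12) and Slc40a1 over Ireb2 (-2.17), where the median length gave 0.22, 0.19 and 0.10.

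Replicate numbers did not pair the libraries: of 24 same-numbered pairs 4 had r over 0.1 (median -0.005), and 5 of 16 libraries correlated best with their own number. The count tests listed as alternatives were not run. Trf, Ncoa4 and Ftl1 share sequence with other genes, and what this does to their counts was not tested. Timd2 had too few counts to test.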

Other observations

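A further 3 iron genes, named after their values were seen, had an unadjusted p under 0.05 over both sexes without being called. Cd163, the macrophage receptor that takes up hemoglobin bound to haptoglobin, differed by 0.35 ± 0.13 log2 units (adjusted p = 0.519, limma-voom), and Hmox1, the enzyme that frees iron from heme, by 0.26 ± 0.11 (adjusted p = 0.574, limma-voom). Cpox, an enzyme of heme synthesis, differed the other way, by -0.15 ± 0.07 (unadjusted p = 0.046, adjusted p = 0.634, limma-voom). Over the same comparison all 14 microglial markers had positive values, with a median of 0.24 and none called, and 4 of 7 tested erythroid markers were positive. By sex, 14 of 14 microglial and 0 of 7 erythroid markers were positive in males, and 11 of 14 and 6 of 7 in females. Of all genes 51.2% were positive over both sexes, 52.5% in males and 50.6% in females. Cd163 differed by 0.49 ± 0.20 in males and 0.22 ± 0.18 in females, and Hmox1 by 0.17 ± 0.16 and 0.35 ± 0.15. The part of these cells in these differences was not tested.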
